A study of Mus musculus with 12 samples.

Results

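The Il10 locus of mouse chromosome 1 and the IL-10 receptor genes were followed through an H3K27ac ChIP-seq experiment on cortical microglia, the resident macrophages of the brain. Acetylation of histone H3 at lysine 27 (H3K27ac) marks active promoters and enhancers. Members were all regions whose nearest gene, as the authors assigned it, was Il10, Il19, Il24, Mapkapk2, Il10ra or Il10rb. They were 61 of 104981 regions of 500 bp, namely 14 of Il10, 1 of Il19, 1 of Il24, 22 of Mapkapk2, 13 of Il10ra and 10 of Il10rb. Assignment to a gene rests on distance alone, and transcripts were not measured.

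Interleukin-33 (IL-33), an alarmin of the IL-1 family, or vehicle was injected into a brain ventricle on 1 side in mice at postnatal day 30. Microglia were purified 4 h later by Percoll gradient and cell sorting. The 8 H3K27ac libraries came from 1 mouse each, males being numbered 1, 2, 5 and 6 and females 3, 4, 7 and 8. The labels give the sex of each mouse but not its treatment, strain or genotype, so values of single libraries are given by mouse number and IL-33 is compared with vehicle only through the authors' deposited table.

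IL-10 is a cytokine that restrains macrophages. It binds a receptor of a ligand-binding chain, encoded by Il10ra, and an accessory chain, encoded by Il10rb, that is shared with other cytokines of the family. The receptor signals through the kinases JAK1 and TYK2 to the transcription factor STAT3, which induces Socs3, a feedback inhibitor. Il10 lies in a cluster with its relatives Il19, Il20 and Il24, and beside Mapkapk2, which encodes MK2, a kinase activated by p38 that controls the stability and translation of cytokine mRNAs.

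Library totals ranged from 2155209 tags in mouse 8 to 10019606 in mouse 1, with 5160915 to 10019606 in male and 2155209 to 4133042 in female libraries. Values below are normalised tags per 500 bp region, scaled by the authors to 10000000 tags per library, so 1 read counted as 0.998 to 4.64 tags. A value of 0 allows up to 3 reads, or 2.99 to 13.9 tags, by counting error alone. The microglial marker genes Cx3cr1, P2ry12, Tmem119, Csf1r, Sall1, Fcrls and Siglech, 7 in all, each had a region within 1 kb of the transcription start site (TSS), with 2695 to 4575 summed tags per library. Lists of other cells summed to at most 5.81 tags in any library for T cells, B cells, monocytes, neutrophils and neurons, with Cd3e, Ccr2, Ly6g and Rbfox3 at 0 regions. Markers of border macrophages summed to 48.1 to 102 tags, of endothelium to 44.0 to 97.6, of oligodendrocytes to 26.6 to 111 and of astrocytes to 39.9 to 159. Nearly all of these sums came from a few genes. Mean tags over the 8 libraries were 68.3 at Mrc1, 64.0 at Pecam1, 37.9 at Mog, 28.2 at Mbp and 104 at Slc1a3. Of the same lists, Cd163, Lyve1, Cldn5, Cdh5, Mag, Gfap and Aqp4 had no region there. A listed gene without a region, in any of the lists, was not measured.

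Across the members, the authors' deposited table gave 11 rises and 2 falls with IL-33 (adjusted p under 0.05) among the 38 regions with an adjusted p, and 25 regions were neither. The background shares in the authors' deposited table are 10.2% risen and 7.99% fallen among all 40352 tested regions. The median log2 fold change of the 38 regions in the authors' deposited table was 0.25, against -0.01 over all tested regions. By nearest gene, the rises were concentrated on chromosome 1. There the authors' deposited table lists 7 of 7 tested Il10 regions and 3 of 14 tested Mapkapk2 regions as risen. Of the receptor genes, 1 of 8 tested Il10rb regions and 0 of 9 tested Il10ra regions rose in the authors' deposited table. Il10ra had 0 rises and 2 falls at an unadjusted p under 0.05 in the authors' deposited table. This count holds by name only. By position, 18 of 48 tested regions in the Il10ra body and 50 kb on both sides rose there, all under other names. The other 23 members were not tested. Of these, 2 are in the authors' deposited table without an adjusted p and 21 are absent from it, among them all 12 members within 3 kb of a TSS. In these purified but bulk samples, a larger share of cells carrying the mark and more of the mark per cell cannot be told apart.

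**Figure D1:**
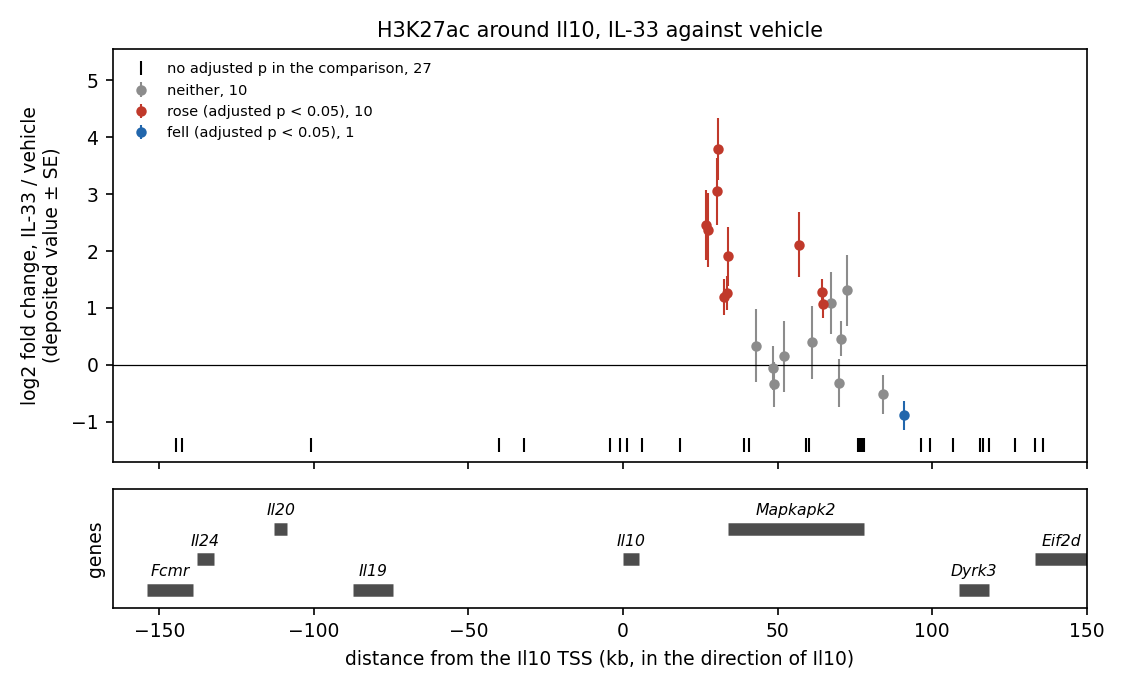
Upper panel, log2 fold change (IL-33 over vehicle, as deposited, ± SE) of each tested region between 50 kb before and 50 kb after the members on chromosome 1, against distance from the Il10 TSS in kb; ticks mark regions without an adjusted p. Lower panel, gene bodies. The 7 tested Il10 regions lie 26.9 to 34.0 kb downstream of the TSS and all rose, up to 3.80.

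The regions at Il10 itself held few reads. The gene (chromosome 1, 131019845 to 131024970 on build mm10, plus strand) overlapped 1 region, 1291 bp inside it, with 0 to 4 reads per library and 19 reads in all 8 libraries. The nearest upstream region, 1119 bp before the TSS, held 9 reads in total. No Il10 region lay within 1 kb of the TSS. The mark at the promoter, and over the gene outside the region 1291 bp inside it, was therefore not measured. Signal of the Il10 regions stood instead in a block downstream of the gene, between 131046448 and 131054069. The block spans 7.62 kb, runs into the 3' end of Mapkapk2 and held 7 of the 14 Il10 regions. By the authors' peak-set entries, 11 of the 14 Il10 regions were in the set named for IL-33 only and 3 in that of both conditions. The 11 are 78.6%, against 18.8% of all 104981 regions. Most of the 7 regions of the block are in the list through the IL-33 set alone. This share and their rises with IL-33 are therefore not separate evidence.

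The downstream block opened with a pair of regions at 26.9 and 27.4 kb from the TSS. At the first (131046448 to 131046948, intergenic), mice 1, 2, 3, 4 and 5 held 29.9, 12.6, 23.5, 21.8 and 4.19 tags, and mice 6, 7 and 8 held 0. The authors' deposited table lists it with a log2 fold change of 2.45 (adjusted p = 0.00107, SE 0.62), where the log2 group value was 0.44 with vehicle and 3.52 with IL-33. Mice 1 to 4 were the 4 highest libraries and the sexes overlapped. At the second (131046987 to 131047487), mice 1, 2 and 3 held 31.9, 37.8 and 11.7 tags and the other 5 libraries 0 to 2.79, with mouse 4 at 0. The authors' deposited table gives this region 2.37 (adjusted p = 0.00293, SE 0.65), the largest adjusted p of the 7. The low value of mouse 4 set this region apart from the others of the block, in which mice 1 to 4 were always the 4 highest.

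The largest rise of all members lay 30.9 kb downstream of the Il10 TSS (131050445 to 131050945, intergenic). Mice 1, 2, 3 and 4 held 47.9, 48.1, 55.8 and 70.2 tags, and mice 5, 6, 7 and 8 held 0, 1.94, 5.57 and 0. The libraries fell far apart, with none between 5.57 and 47.9 tags, and male and female libraries stood on both sides of that gap. In the authors' deposited table it has a log2 fold change of 3.80 (adjusted p = 3.67e-10, SE 0.54), where the group value was 0.71 with vehicle and 4.82 with IL-33. Only 48 of the 40352 tested regions in the authors' deposited table have a larger one. The adjoining region at 30.3 kb (131049940 to 131050440) held 20.96, 25.2, 41.1 and 38.7 tags in mice 1, 2, 3 and 4 and 0 to 2.10 tags in mice 5 to 8. The authors' deposited table lists it at 3.05 (adjusted p = 8.20e-06, SE 0.59).

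The last 3 regions of the block lie nearest Mapkapk2 and include its 2 strongest, and their log2 fold changes were smaller. At 32.7 kb (131052323 to 131052823), mice 1, 2, 3 and 4 held 75.8, 63.0, 58.7 and 135 tags, and mice 5, 6, 7 and 8 held 27.3, 34.9, 30.7 and 46.4. The authors' deposited table gives 1.19 (adjusted p = 0.00236, SE 0.32) with a vehicle value of 4.16. At 33.5 kb (131053126 to 131053626), annotated as the transcription end of the Mapkapk2 transcript NM_008551, the libraries held 98.8, 66.4, 93.9 and 116 tags in mice 1 to 4 and 37.8, 27.1, 44.6 and 37.1 in mice 5 to 8. The lowest of the first 4 values exceeded the highest of the last 4 at both regions, and the sexes overlapped. This region was the strongest of Il10 and rose by 1.27 in the authors' deposited table (adjusted p = 0.00036, SE 0.30). The last region of the block, at 34.0 kb, overlaps it and lies in the gene body of Mapkapk2. It held 19.96, 30.9, 44.0 and 43.6 tags in mice 1 to 4 and 11.5, 5.81, 2.79 and 0 in mice 5 to 8, and the authors' deposited table lists 1.91 (adjusted p = 0.00286, SE 0.52). Overlapping regions share reads and are not separate measurements.

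**Figure D2:**
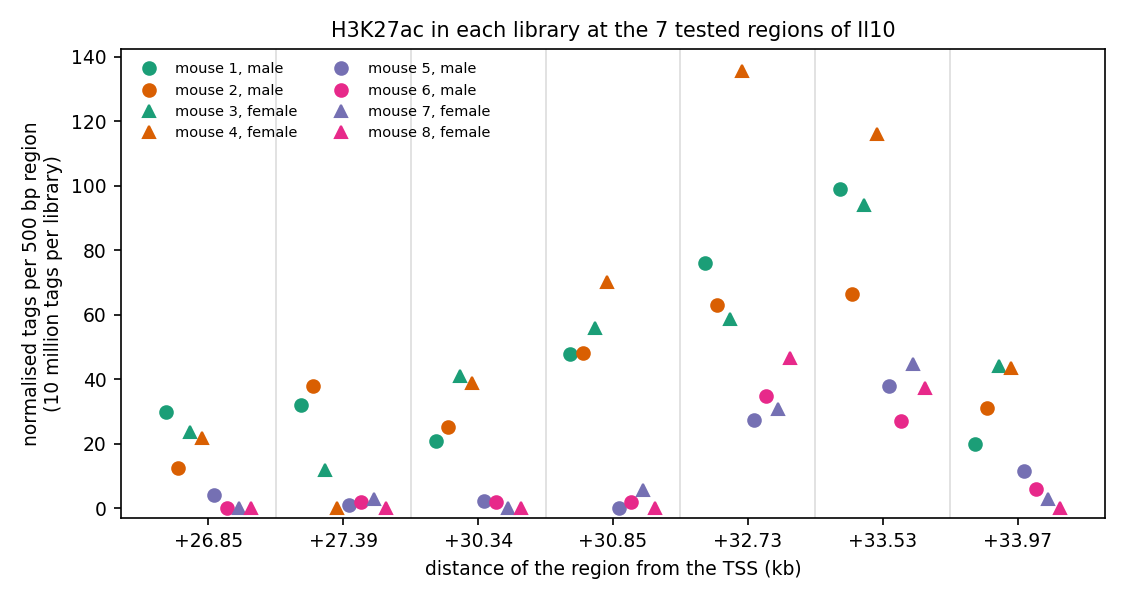
Normalised tags of the 7 tested Il10 regions in each of the 8 libraries, against the distance of the region from the Il10 TSS; circles are male and triangles female mice, coloured by mouse. At 30.85 kb mice 1 to 4 sit between 47.9 and 70.2 tags and mice 5 to 8 between 0 and 5.57.

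The other 7 Il10 regions, at -32.2, -4.26, -1.12, 1.29, 6.14, 18.4 and 39.0 kb from the TSS, held 2 to 19 reads over all libraries and are not in the authors' deposited table. Summed over its 14 regions, Il10 held 336, 297, 381 and 438 tags in mice 1, 2, 3 and 4 and 95.4, 81.4, 94.8 and 83.5 tags in mice 5, 6, 7 and 8. In reads these sums are 337, 259, 130, 181, 91, 42, 34 and 18 for mice 1 to 8, so the female sums rest on fewer reads. No library lay between 95.4 and 297 tags. Some marker sums were ordered by the same libraries in the opposite direction. Border macrophage markers, nearly all of it at Mrc1, summed to 49.9, 48.1, 58.7 and 65.3 tags in mice 1 to 4 and 88.1, 77.5, 80.8 and 102 in mice 5 to 8. The microglial marker Siglech held 142 to 205 tags in mice 1 to 4 and 273 to 357 in mice 5 to 8. The other microglial markers overlapped between these libraries. The microglial list summed to 2695 to 4575 tags in mice 1 to 4 and 2879 to 3902 in mice 5 to 8. The part of the Mrc1 and Siglech differences in the Il10 values was not tested.

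Among the 2546 nearest genes with at least 5 tested regions in the authors' deposited table, 10 had every region risen. Il10 was 1 of them, and its 7 regions tied with Cdc42bpg behind Txlnb and Tm9sf4, which have 8 each. The next genes, with 6 each, were 3425401B19Rik, Nek9 and Fam76a. Measured as a run of consecutive risen regions along the chromosome, the Il10 block was 1 of 44 runs of at least 7 regions in the authors' deposited table, 27 of which are longer. Most of the 7 Il10 regions are in the list through the IL-33 peak set alone, and the last overlaps the one before it. Their place in these counts is therefore not separate evidence of a rise.

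Likeness to Il10 was measured over the 8 libraries as the Pearson correlation of log2 summed tags (plus 1), each centred on the mean of its sex, across 10731 genes. The 5 genes most like it were Plaur (r = 0.9985), the urokinase receptor, Slc11a2 (r = 0.998), an iron transporter, St3gal1 (r = 0.997), a sialyltransferase, Igsf6 (r = 0.996) and Dusp2 (r = 0.996), a phosphatase of MAP kinases. Plaur held 171, 141, 176 and 203 tags in mice 1 to 4 and 47.2, 36.8, 41.8 and 32.5 in mice 5 to 8. Dusp2 held 768, 647, 663 and 987 tags in mice 1 to 4 and 103, 87.2, 89.2 and 51.0 in mice 5 to 8. All genes share the 8 libraries and their depth, and the libraries of these genes form separate clusters, so r describes that gap. Across all genes compared, the quartiles of r were -0.50 and 0.67 and the median 0.16. Mapkapk2 had r = 0.81, Il10rb 0.83 and Il10ra -0.73.

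The regions assigned to Il19 and Il24 had almost no signal. The single Il19 region, 39.5 kb before its TSS (130979403 to 130979903), held no read in any library. The authors' entry nevertheless places it in the peak set of both conditions. It is 1 of 852 such regions, 446 of them in that set. The single Il24 region lies 10.2 kb from its TSS in an intron of Fcmr (130876916 to 130877416) and held 4.99, 3.44 and 1.05 tags in mice 1, 2 and 5 and 0 in the other 5 libraries. Neither is in the authors' deposited table. No region overlapped the gene body of Il19 or Il24, so the mark at these genes themselves was not measured here, and the Il24 region stood at 9 reads over all libraries.

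The wider map of the neighbourhood ran from 50 kb before the first to 50 kb after the last of the chromosome 1 members (130826916 to 131166382, 339 kb) and held 48 regions. The authors' deposited table tested 21 of them, of which 10 (47.6%) rose and 1 (4.76%) fell, against 10.2% and 7.99% of all tested regions. All 21 carry the name Il10 or Mapkapk2. The other 10 regions belong to Fcmr (1), Il20 (1), Dyrk3 (5) and Eif2d (3) by nearest gene and none was tested. Their mean levels were 1.18 to 45.4 tags, the highest at Dyrk3, a kinase gene on the far side of Mapkapk2.

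Mapkapk2 (131053700 to 131097871, minus strand) was marked at its start and along its first intron. Of its 14 tested regions, 21.4% rose and 7.14% fell, against 10.2% and 7.99% of all tested regions in the authors' deposited table. The fallen share was near that background. The authors' deposited table gives 3 rises, 1 fall and 10 regions that were neither. The largest was an intron region 21.2 kb from the TSS (131076406 to 131076906), which held 11.0, 25.2, 26.4 and 50.8 tags in mice 1 to 4 and 4.19, 1.94, 8.36 and 0 in mice 5 to 8. It rose by 2.11 in the authors' deposited table (adjusted p = 0.00237, SE 0.57). An overlapping pair 13.7 and 13.4 kb from the TSS was stronger. The first of the pair (131083880 to 131084380) held 160, 124, 217 and 300.02 tags in mice 1 to 4 and 70.25, 60.1, 97.6 and 83.5 in mice 5 to 8. With IL-33 it rose by 1.28 (adjusted p = 1.10e-06, SE 0.23) and its partner by 1.08 (adjusted p = 0.000395, SE 0.25) in the authors' deposited table. In the first of the pair mouse 2 was the lowest of the 4 higher libraries and mouse 7 the highest of the 4 lower ones, and the sexes overlapped.

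The fallen Mapkapk2 region lies upstream of the gene, 13.0 kb before the TSS (131110639 to 131111139, intergenic). It held 77.8, 45.8, 46.9 and 89.5 tags in mice 1 to 4 and 98.6, 103, 162 and 148 in mice 5 to 8. Here mice 5 to 8 were the 4 highest libraries. The authors' deposited table gives a log2 fold change of -0.88 (adjusted p = 0.00499, SE 0.25), where the group value was 5.97 with vehicle and 5.003 with IL-33. A second upstream region, 6.16 kb before the TSS, had -0.52 there and missed the threshold in the authors' deposited table with an adjusted p = 0.331. In the gene body the values of the authors' deposited table that missed it run from -0.34 to 1.31. The highest of them, 5.44 kb from the TSS, had a mean of 8.68 tags (adjusted p = 0.133, SE 0.62 in the authors' deposited table).

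The start of Mapkapk2 could be compared only between the sexes, because the authors' deposited table holds no region within 3 kb of a TSS. The promoter region (131097634 to 131098134, 41 bp from the TSS by the authors' annotation) had values of 185, 150.05, 135 and 118 tags in males 1, 2, 5 and 6 and 29.3, 0, 5.57 and 9.28 in females 3, 4, 7 and 8. The male mean was 147 ± 28.2 and the female mean 11.0 ± 12.8 (SD, n = 4 each), and the groups did not overlap. In reads, male libraries held 61 to 185 and female libraries 0 to 10. The female value was lower by 4.44 on the log2(tags + 1) scale (SE 0.78, limma adjusted p = 0.00861 over 53348 regions). Over all regions tested, 1.87% were lower and 0.15% higher in female libraries. Within 1 kb of a TSS the share lower in female libraries was 5.64% of 16269 regions, and farther away 0.216% of 37079. Header text gives the male and female libraries different dates and index types, so sex and batch cannot be told apart.

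The intron region beside it, 817 bp from the TSS (131096776 to 131097276), showed no such gap. It held 169, 145, 125 and 114 tags in males 1, 2, 5 and 6 and 99.8, 305, 103 and 92.8 in females 3, 4, 7 and 8. Male libraries had a mean of 138 ± 24.03 and female libraries of 150.1 ± 103 (SD, n = 4 each), with a log2 difference of -0.06 (limma adjusted p = 0.959). Female mouse 4 had the lowest value of all libraries at the promoter region and the highest here. At 1365 and 2051 bp from the TSS the libraries held 13.9 to 55.6 and 11.2 to 77.4 tags, with the sexes overlapping at both.

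**Figure D3:**
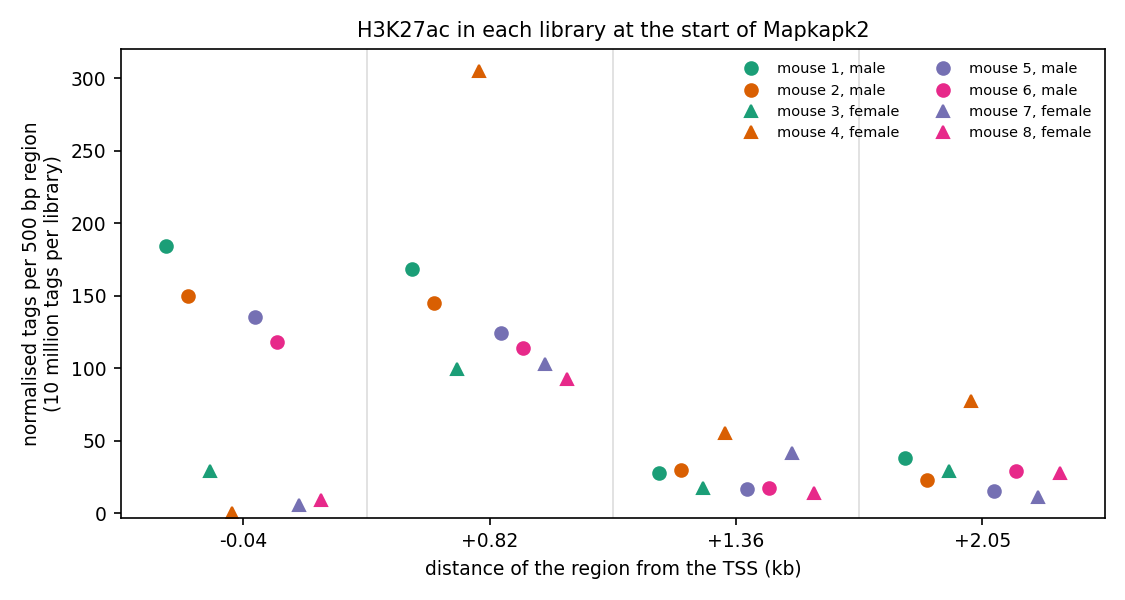
Normalised tags of the 4 regions within 3 kb of the Mapkapk2 TSS in each library, against distance from the TSS in kb; circles are male and triangles female mice, coloured by mouse. At the promoter region male mice sit between 118 and 185 tags and female mice between 0 and 29.3.

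The RefSeq promoter of Mapkapk2 (GRCm38.p6, chr1:131097794-131098093, minus strand, 250 bases before to 50 after the start) is shown because it lies inside this region. Capitals mark motif matches, 5′ to 3′.
Mapkapk2 promoter: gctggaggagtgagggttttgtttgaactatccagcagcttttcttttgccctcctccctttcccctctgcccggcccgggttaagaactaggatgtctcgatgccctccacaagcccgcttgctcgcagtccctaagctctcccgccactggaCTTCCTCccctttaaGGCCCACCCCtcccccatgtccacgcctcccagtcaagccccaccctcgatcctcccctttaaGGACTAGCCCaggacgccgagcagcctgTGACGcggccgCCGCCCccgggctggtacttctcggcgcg
Its GC content is 63.3%, against a median of 52.7% over 32851 promoters of the same length. Searched on both strands, it holds a PU.1 motif (GAGGAAG, on the minus strand of this sequence, in 13.6% of promoters), 2 matches to a loose NF-kB motif (GGG, any 5 bases, then CC, in 50.8%), a CRE core (TGACG, in 20.8%) and a GC box (GGGCGG, in 35.7%). None of the matches overlap. It does not hold the stricter NF-kB motif (GGG, any 3 bases, then TTCC, in 5.56%), AP-1 TGANTCA (in 7.81%), a Maf core TGCTGA (in 19.5%), STAT TTCNNNGAA (in 8.30%), C/EBP TTGCNNAA (in 10.8%) or TATAAA (in 13.6%). A match is a description of letters and no binding was measured. Promoters of 2 of the 6 members, Il19 and Mapkapk2, were in the sequence table.

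Il10ra (chromosome 9, 45253837 to 45269149, minus strand), the gene of the ligand-binding chain, was among the strongly marked members. Its promoter region, 53 bp from the TSS, held 152, 132, 128 and 120.1 tags in males 1, 2, 5 and 6 and 112, 148, 162 and 176 in females 3, 4, 7 and 8. The sexes overlapped, and the mean of males was 133 ± 13.5 and of females 149 ± 27.8 (SD, n = 4 each). Upstream, a stretch from 3.27 to 13.5 kb before the TSS held 9 tested regions, and their log2 fold changes run in the authors' deposited table only from -0.46 to 0.17, with a median of -0.17. The strongest region of all members, 6.12 kb before the TSS (45275018 to 45275518), had a mean of 290 tags and was the 1 that fell. It held 214, 174, 241 and 339 tags in mice 1 to 4 and 273, 264, 368 and 445 in mice 5 to 8. Mouse 4 lay above mice 5 and 6, so no gap separated the libraries. The authors' deposited table gives it -0.46 (adjusted p = 0.0226, SE 0.16). A region 5.20 kb before the TSS had -0.40 and missed the threshold (adjusted p = 0.061, SE 0.16 in the authors' deposited table). Neither region that overlaps the fallen one was called there. At 5.65 kb before the TSS the deposited value was -0.08 (adjusted p = 0.826, SE 0.19). At 6.46 kb before the TSS it was -0.33 (adjusted p = 0.362, SE 0.23).

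These 13 regions cover only the promoter side of Il10ra. Of the 18 regions that overlap its gene body, 16 carry the name Mir7086, a microRNA gene nested in Il10ra (45266643 to 45266707), and only 2 carry its own name. The mature microRNAs, from RefSeq (GRCm38.p6, minus strand), are shown because this name takes over the regions; capitals mark the seed, bases 2 to 8.
mmu-miR-7086-5p: aAGAGGAGaaagguuugggca
mmu-miR-7086-3p: uCCGUUCUgauaucuccucag
Taken by position, 12 regions of the Il10ra body were tested in the authors' deposited table, with 2 rises and 0 falls. With 50 kb added on both sides, 48 regions were tested, of which 18 (37.5%) rose and 1 fell, against 10.2% and 7.99% of all tested regions in the authors' deposited table. For the 28 tested regions named Mir7086, the authors' deposited table lists 16 rises and 0 falls.

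Of the 18 risen regions, 7 formed a block around the 3' end of Il10ra (45249986 to 45255006, 5.02 kb), 14.1 to 19.2 kb from its TSS. Most of the block lies beyond the gene, and its far part overlaps the end of the next gene, BC049352 (45195688 to 45251370). Their log2 fold changes were 0.73 to 1.71 in the authors' deposited table, with a median of 1.13. At the region annotated as the transcription end of the Il10ra transcript NM_008348 (45252867 to 45253367), mice 1, 2, 3 and 4 held 210, 205, 264 and 300.02 tags and mice 5, 6, 7 and 8 held 54.5, 89.1, 53.0 and 92.8. The authors' deposited table gives this region 1.71 (adjusted p = 2.72e-12, SE 0.22). The region 16.9 kb from the TSS (45251956 to 45252456) was higher still, with 360, 273, 267 and 607 tags in mice 1 to 4 and 73.4, 120.1, 117 and 167 in mice 5 to 8. It rose by 1.65 in the authors' deposited table (adjusted p = 1.75e-12, SE 0.21). At both regions the sexes overlapped and mice 1 to 4 were the 4 highest libraries.

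A second block of 8 rises, from 45241358 to 45248057, lies 21.1 to 27.8 kb from the Il10ra TSS inside the next gene, BC049352, with log2 fold changes, as the authors' deposited table gives them, of 0.43 to 1.46. An intron region of Il10ra, 6.90 kb from the TSS (45262002 to 45262502), rose by 1.32 in the authors' deposited table (adjusted p = 0.017, SE 0.43). The remaining 2 rises lie on the other side, at -29.0 and -30.6 kb from the Il10ra TSS under the name Tmprss13, with 0.69 (adjusted p = 0.0153) and 0.63 (adjusted p = 0.00294) in the authors' deposited table. Which gene any of these regions acts on was not tested.

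**Figure D4:**
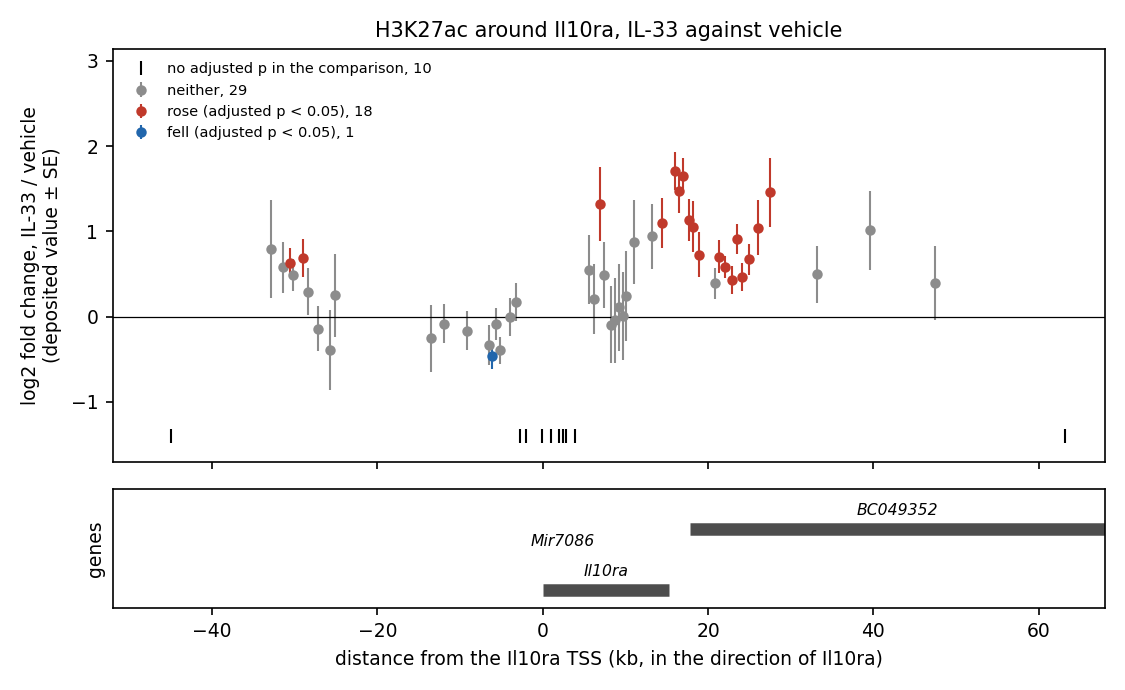
Upper panel, deposited log2 fold change (IL-33 over vehicle, ± SE) of regions in the Il10ra body and 50 kb on both sides, by position and not by name, against distance from the Il10ra TSS in kb in the direction of the gene; ticks mark regions without an adjusted p. Lower panel, gene bodies. Regions upstream of the TSS to 13.5 kb stay between -0.46 and 0.17, and the block at 14.1 to 19.2 kb reaches 1.71.

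Il10rb (chromosome 16, 91406157 to 91425834, plus strand), the gene of the accessory chain, lies just downstream of Ifnar2, a chain of the type I interferon receptor. Its promoter region, 8 bp from the TSS, held 191, 151, 176 and 153 tags in males 1, 2, 5 and 6 and 191, 206, 97.6 and 102 in females 3, 4, 7 and 8. The means were 168 ± 19.0 and 149 ± 57.2 (SD, n = 4 each) and the sexes overlapped. In its gene body 5 regions were tested and none rose or fell in the authors' deposited table, with values from -0.52 to 0.76. At an unadjusted p under 0.05 the authors' deposited table has 3 of the 8 tested Il10rb regions higher and 0 lower. The value of 0.76, 9.30 kb from the TSS, missed the threshold (adjusted p = 0.0658, SE 0.30 in the authors' deposited table). The strongest Il10rb region, 9.70 kb from the TSS, held 145 to 295 tags and the authors' deposited table lists it at 0.16 (adjusted p = 0.623).

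The 1 risen Il10rb region lies 7.48 kb before the TSS in an intron of Ifnar2 (91398504 to 91399004). It held 130, 108, 170 and 143 tags in mice 1 to 4 and 58.7, 34.9, 83.6 and 78.9 in mice 5 to 8. In the authors' deposited table it has a log2 fold change of 1.11 (adjusted p = 0.000244, SE 0.25). Mice 1 to 4 were the 4 highest libraries and the sexes overlapped. The region that overlaps it, 7.91 kb before the TSS, had 0.52 (adjusted p = 0.0893, SE 0.22 in the authors' deposited table). By position, 3 of 23 tested regions (13.0%) in the body and 50 kb on both sides rose in the authors' deposited table and none fell. Over all tested regions there, 10.2% rose and 7.99% fell, so the risen share was near that background. The other 2 rises carry the name A930006K02Rik, and the larger (91452517 to 91453017) was 1.39 (adjusted p = 5.41e-06, SE 0.26 in the authors' deposited table).

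**Figure D5:**
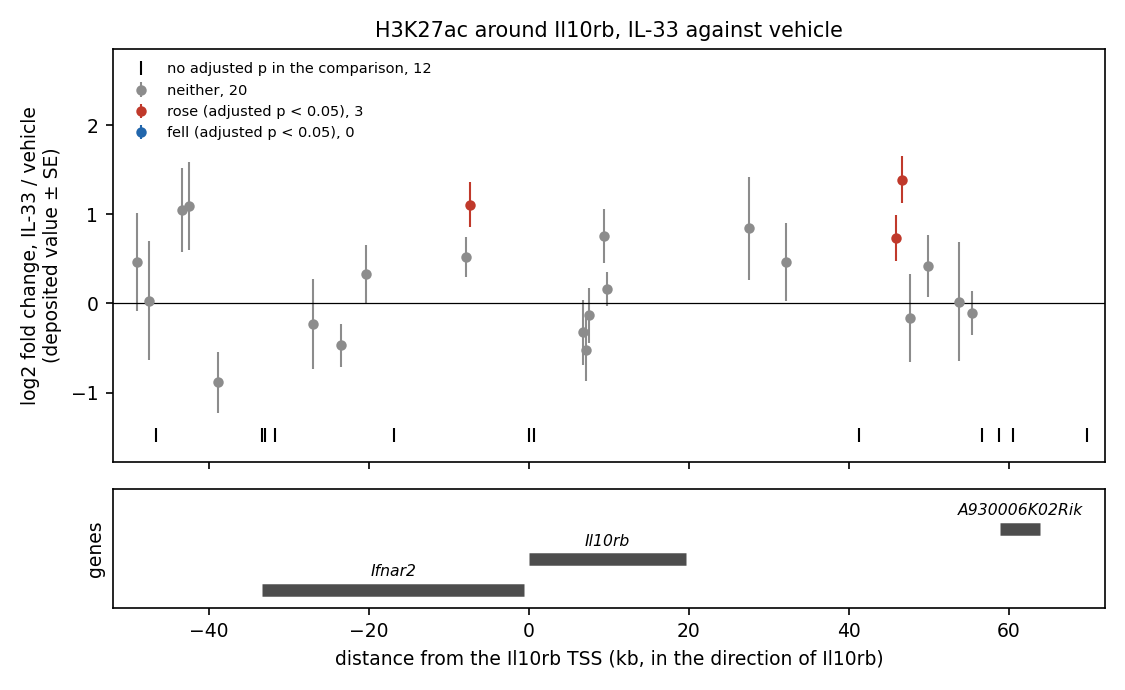
Upper panel, deposited log2 fold change (IL-33 over vehicle, ± SE) of regions in the Il10rb body and 50 kb on both sides against distance from the Il10rb TSS in kb; ticks mark regions without an adjusted p. Lower panel, gene bodies. The regions in the gene body lie between -0.52 and 0.76, and the risen region at -7.48 kb lies in Ifnar2 with 1.11.

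The level of the mark at the start of the genes can be ordered from the regions nearest each TSS, as tags per 500 bp. Promoter regions of Il10rb, with a mean of 158 tags over the 8 libraries, and Il10ra, with 141, did not differ beyond their spread of 97.6 to 206 and 112 to 176. Mapkapk2 had 79.0 at its promoter region, with the split between sexes described above, and 144 at the region 817 bp inside the gene. Il10 had 1.66 and 4.17 at its 2 nearest regions, far below those means. These lie 1119 bp before and 1291 bp after its TSS, so the Il10 promoter itself has no place in this order.

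Between the sexes, 1 of the 44 member regions with a mean of at least 10 tags was called, the Mapkapk2 promoter region. None was higher in female libraries by limma or by edgeR after adjustment, and 6 were at an unadjusted p under 0.05 by limma and 1 by edgeR. Of the 7 downstream Il10 regions none was called, and none reached an unadjusted p under 0.05 with either tool. Their female minus male differences were -1.83 to 0.48 on the log2 scale, with SEs of 0.47 to 1.52 (limma adjusted p 0.658 to 0.935). Each sex held both high and low libraries at these regions, and the fit has no term for treatment. A sex difference there could therefore be missed.

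Genes that act with IL-10 were counted from lists by nearest gene, some of which, such as Socs3 and Cebpd, stand in more than 1 list. Over all 7838 nearest genes with a tested region in the authors' deposited table, 19.4% had a risen and 20.9% a fallen region, and genes with more regions have more chances of either. Of 10 tested genes of IL-10 receptor signalling, 6 had a rise and 2 a fall in the authors' deposited table, including 1 with both. Counted by region, 19.5% of the 113 tested in this list rose there and 8.85% fell, against 10.2% and 7.99% of all tested regions. Tyk2, the kinase bound to the accessory chain, had 7 of 9 regions risen, the largest by 3.56 (adjusted p = 7.12e-23, SE 0.34 in the authors' deposited table). Jak1, the kinase bound to the ligand-binding chain, had 5 of 19 regions fallen and none risen in the authors' deposited table, the largest by -2.08 (adjusted p = 2.39e-05, SE 0.42). Socs3 had 10 of 20 regions risen, up to 3.57, and Stat3 had none of 3 called in the authors' deposited table.

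Among 17 tested response genes of IL-10 and STAT3 in macrophages, 8 had a rise and 3 a fall in the authors' deposited table. By region, 27.1% of the 118 tested in this list rose there and 3.39% fell, against 10.2% and 7.99% of all tested regions. Besides Socs3, the largest rises were at Bcl6, a transcriptional repressor, with 5 of 8 regions risen up to 3.14. Next came Cebpd, a transcription factor, with 4 of 11 regions risen up to 3.0 in the authors' deposited table. Of 24 tested factors with a described role at Il10 in macrophages or T cells, 13 had a rise and 5 a fall in the authors' deposited table. These counts include 4 factors with both. By region, 17.0% of the 336 tested in this list rose there and 5.06% fell, against the same 10.2% and 7.99%. Nfkb1, the p105/p50 subunit of NF-kB, had 4 rises up to 4.21 and 11 falls among 30 regions in the authors' deposited table. Maf, which activates Il10 in macrophages and T cells, had 10 rises and 1 fall among 67 regions in the authors' deposited table. Its largest was 3.33, at a region whose vehicle value is listed at 0 in the authors' deposited table. Batf had 6 of 9 regions risen, up to 3.04, in the authors' deposited table.

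Of 14 tested genes of the p38 and MK2 axis, 4 had a rise and 3 a fall in the authors' deposited table. By region, 12.6% of the 127 tested in this list rose there and 5.51% fell, against 10.2% and 7.99% of all tested regions. Map2k6, a kinase that activates p38, had 10 of 20 regions risen up to 3.54, and Dusp1, a phosphatase that inactivates p38, had 4 of 10 risen up to 3.09 in the authors' deposited table. Tab2, an adaptor of the kinase TAK1, had 3 of 29 regions fallen, the largest by -1.72, in the authors' deposited table. A list of other IL-10 family cytokines and receptors, with interferon receptors added, had no rise in 53 tested regions of 8 genes. In the authors' deposited table, 4 of them were higher and 8 lower at an unadjusted p under 0.05. Most of the 53 regions belong to interferon receptor genes, namely Ifngr1 (16), Ifnar2 (12) and Ifngr2 (10). The list had 2 falls in the authors' deposited table. They were at Il20rb, a receptor chain for IL-19, IL-20 and IL-24, with -0.91, and Ifngr1, a chain of the interferon gamma receptor, with -0.63.

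Farther along chromosome 1, 4 of 12 listed neighbours had tested regions in the authors' deposited table. Of these 75 regions, 18.7% rose there and 9.33% fell, against 10.2% and 7.99% of all tested regions. The fallen share was near that background. Ikbke, an IkB kinase related gene, had 14 of 28 regions risen, up to 2.86, in the authors' deposited table. Srgap2 had 5 of 35 fallen, the largest by -2.09, and Eif2d had 2 of 3 fallen, the larger by -1.23, in the authors' deposited table. Rassf5 had none of its 9 regions called in the authors' deposited table.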

How the data were processed

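The submitters' processing notes name Bowtie2, HOMER and the mouse build mm10 (GRCm38) without versions. The authors deposited a normalised signal per region and library, which per the file headers is HOMER tags scaled to 10000000 per library, with the nearest gene, annotation and peak set. The authors' deposited table of IL-33 against vehicle holds a log2 fold change, p-values (raw and adjusted), log2 group values and 3 scores (mean level, standard error, statistic) for 55386 regions. Neither its tool nor the mice of each group could be read from the sources used here. Its 15034 regions without an adjusted p have a mean level of at most 2.73 and were not tested. Across regions, which are no replicates of each other, its log2 fold change and the IL-33 minus vehicle group value had r = 0.979, so positive means higher with IL-33. Input libraries of the 4 male mice are listed among the 12 samples and have no values used here.

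Columns were matched to mice through the headers. The scaling factors returned whole reads for 100% of values (tolerance 0.01). Regions held 32.9 to 47.3% of tags. No library repeated another (chi-square per degree of freedom 1.77 to 7.02 within a sex). Intervals and floors cover counting error only.

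Regions were joined by ID with pandas 2.3.3 (Python 3.11.15). Female and male libraries were compared with limma 3.58.1 on log2(tags + 1) over 53348 regions with a mean of at least 10 tags, with Benjamini-Hochberg adjustment, checked on simulated data, and with edgeR 4.0.16 (quasi-likelihood) on recovered reads as an alternative. Each sex holds mice of unknown treatment, whose effect enters its spread. The simulated data had no treatment effect and no batch, so that check does not cover either. Replicates are separate mice. Gene bounds and names came from a GRCm38.p6 gene table, in which all 6 members were found. Members, lists and named genes (the 3 largest called changes of each list, the 5 genes most like Il10) were chosen with earlier results of these data known. Stat3 and Rassf5 were named after their values were seen. A marker gene of the list is not reported here.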

Additional observations from a re-analysis of the deposited data

Results flagged for a closer look

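In 88 groups of 4 libraries (1 sex at 1 member region with a mean of at least 10 tags), 5 had a library far from the other 3. Chance alone flags about 1 in 20 such groups, or 4.4 here. At the Mapkapk2 region 817 bp from the TSS, female mouse 4 held 304.86 tags and the other females 92.8 to 103. At the Il10rb region 557 bp from the TSS, the same mouse held 125.82 tags and the other females 88.0 to 92.8. At the Il10rb region 9.30 kb from the TSS, male mouse 1 held 68.86 tags and the other males 42.6 to 46.1. At the Il10ra region 5.20 kb before the TSS, female mouse 3 held 231.79 tags and the other females 346 to 348. At the Il10ra region 5.65 kb before the TSS, male mouse 6 held 149.2 tags and the other males 137 to 138.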

How the results depend on the processing

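In the authors' deposited table, the 11 member rises numbered 11 at an adjusted p under 0.01, 11 with a log2 fold change of at least 1, 11 with p-values adjusted over every region of the table, and 8 of 29 with overlapping regions dropped. Taken by position (gene body and 50 kb on both sides) they were 31 of 92 tested regions in the authors' deposited table, since regions of other names join. The 2 falls were 1 under 0.01 and 0 at a size of at least 1. In the neighbourhood of Il10 the single fall was 0 at that size and 3 with a 200 kb extension, where 13 of 40 regions rose. Differences of the deposited group values lay within 1 SE of the log2 fold change for 36 of 38 member regions. The exceptions were the Il10 regions at 26.9 kb (3.09 against 2.45) and 34.0 kb (2.59 against 1.91), and the cause was not tested. No called region changed sign, and 1 uncalled region did, the Mapkapk2 region starting at 131071568 (0.15 against -0.13).

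The lower Mapkapk2 promoter value of female libraries was called in every sex fit except that with no filter on low values, where the count was 0 and the difference of -4.44 had an adjusted p of 0.0555, with 104981 regions tested. Leaving out 1 library in turn gave differences of -5.16 to -3.52 (adjusted p 0.00159 to 0.0387), and edgeR gave 0.00165. At the region 817 bp inside the gene the difference was -0.47 to 0.10 without 1 library in turn and turned positive without male mouse 1 or female mouse 3, 7 or 8 (0.04, 0.06, 0.05 and 0.10). Over all regions, 998 were lower in female libraries by limma, 1463 after TMM rescaling, 1573 after quantile normalisation and 1470 by edgeR, and TMM moved the median difference from 0.22 to -0.02. Without 1 library in turn the count was 473 to 1388. No paired analysis was possible because male and female libraries share no mouse number, and the inputs that share numbers with male libraries have no values here. Depth limits the female values most, since 1 read there equals 2.42 to 4.64 tags.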
